A study of Mus musculus with 6 samples.

Results

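Sertoli cells are the somatic nurse cells of the seminiferous tubule, and 9 genes of their identity and secretion are described here: the transcription factors Sox9, Sox8, Wt1 and Gata4, the ligands Amh and Dhh, the receptor Fshr, and the secreted proteins of Clu and Trf. The members were chosen by name, and every probe set annotated to one of these symbols on the Affymetrix Mouse430A_2 array was taken. That gave 14 of the 22626 probe sets tested: 13 belong to 7 of the 9 genes, 1 is shared by Trf and Srprb, and Sox8 was not analysed here because no probe set in the value table carries its symbol. In the tubule, Sertoli cells form the blood-testis barrier, answer to follicle stimulating hormone through Fshr, and feed germ cells with carrier proteins such as transferrin. Their fate is set in the fetal gonad by a cascade in which WT1 and GATA4 act upstream of SOX9. AMH removes the Müllerian ducts and its production falls at puberty, while DHH signals to neighbouring Leydig and peritubular cells.

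The titles name 3 samples as spermatogonial stem cells and the other 3 as total testicular cells, each with its total RNA on 1 array. All mice carried the CD4HAglo transgene, in which a truncated Stra8 promoter drives a human CD4 surface protein. The stem cell samples are CD4-positive cells taken with magnetic beads, from 50 pooled males for each preparation. The other group is titled total testicular cells, but its source is given as CD4-negative cells, and strain, age and the number of animals behind it are not given in the sources used here. Nothing states that the samples of a group came from separate animals beyond the stem cell preparations, so p-values measure the spread between these samples.

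On the 6 arrays, 79.7% to 84.1% of probe sets lay above a background of 2.15 log2 units, which 95% of 27 bacterial control probe sets stayed under on average. Of the stem cell arrays, replicate 1 lay farthest out on the main axis of variation, at 78.7, with the other two at 18.8 and 15.3. Of 11 measured markers of undifferentiated spermatogonia, 0 passed the test by limma in either direction. At an unadjusted p under 0.05, 1 was higher and 1 lower (11.8% and 13.1% of all genes). Every stem cell value lay above every other value in 1 marker and below in 2 (13.8% and 19.2% of all genes). The mean level of the list overlapped between the groups (3.18 to 3.30 in the total testicular group, 3.06 to 3.24 in the stem cell group). In 7 of the 11 the total testicular cell mean lay within 1 log2 unit of background or below it, as in 5013 of all 12393 named genes. The 10 macrophage markers averaged 4.23 to 4.76 in the total testicular group and 7.63 to 9.44 in the stem cell group, and in all 10 every stem cell value lay above every other value, as in 13.8% of all genes (19.2% lay below). The 5 measured Leydig cell markers averaged 5.17 to 6.23 and 6.50 to 8.71, and 4 of the 5 lay above in the same way. By limma 9 of the 10 macrophage markers passed, against 1.63% of all genes. For the Leydig cell markers 0 passed, though all 5 were higher at an unadjusted p under 0.05. None of these markers is at 0 on any array. The part of macrophage and Leydig transcripts in the differences below was not tested.

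Of the Sertoli cell genes, Clu was higher in the stem cell group and the 6 others with a probe set of their own did not pass the test. Clu, which encodes the secreted chaperone clusterin, was 4.05-fold higher on its brightest probe set, whereas the differences of the 6 others ranged from −0.12 to 0.32 on the log2 scale over 9 probe sets. The probe set shared by Trf and Srprb was 6.95-fold higher. By limma with an adjusted p under 0.05, 1 of 7 genes rose, against 1.63% of all 12393 named genes, and 0 fell, against 0.137%. Counted as probe sets, 5 of 14 rose, against 1.40% of all, and 0 fell, against 0.150%, but 4 of these 5 report the single gene Clu.

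**Figure D1:**
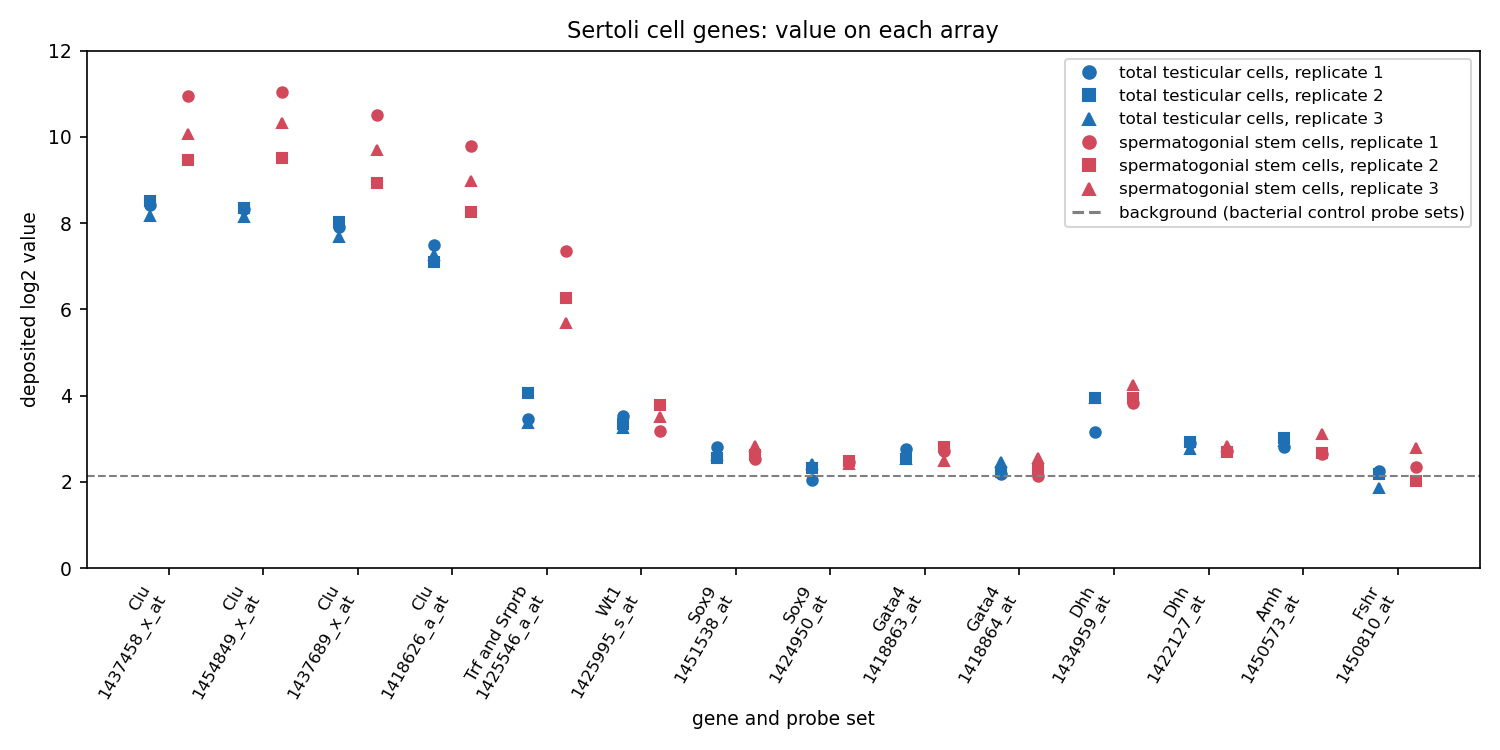
Deposited log2 value (vertical axis) of each of the 14 probe sets (horizontal axis) on the 3 total testicular cell arrays (blue) and the 3 stem cell arrays (red), with background as a dashed line at 2.15. The groups separate at the 4 Clu probe sets and the shared Trf and Srprb probe set, and the remaining 9 probe sets lie between 1.85 and 4.25 with overlapping groups.

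The secreted proteins come first. On the brightest Clu probe set, 1454849_x_at, the total testicular group read 8.34, 8.35 and 8.14 and the stem cell group 11.04, 9.52 and 10.31. The groups were apart, and stem cell replicate 1 was the highest. The means were 10.29 ± 0.76 (SD, n = 3) and 8.27 ± 0.12 (SD, n = 3), a log2 difference of 2.02 ± 0.31 (SE) with a 95% interval from 1.31 to 2.72 (limma, adjusted p = 0.0234).

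The other 3 Clu probe sets gave like differences. They were 1.83 on 1437689_x_at (adjusted p = 0.0391 by limma), 1.79 on 1437458_x_at (0.0364) and 1.73 on 1418626_a_at (0.0411). On each of them the 3 stem cell values lay above the 3 others, as they did for 13.5% of all probe sets. In the naming of the array an x in the suffix marks probes that may also bind other transcripts, and 1418626_a_at, which carries no such mark, read 7.49, 7.10 and 7.27 against 9.79, 8.27 and 8.99. So a probe set without that mark showed the rise as well.

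The Clu call did not hold in every refit. Without stem cell replicate 1 the difference of 1454849_x_at was 1.64 (adjusted p = 0.00575 by limma). Without total testicular cell replicate 1, 2 or 3 it was 2.05, 2.05 and 1.95 and missed the threshold (adjusted p = 0.132, 0.0958 and 0.135). Over all probe sets, 36, 64 and 49 rose in those refits, against 316 in the main fit. The difference was 2.81 within fluidics round 1, a set of arrays whose runs started over 15 minutes apart from those of other rounds (stem cell replicate 1 against total testicular cell replicates 1 and 3), and 1.17 within round 3 (replicate 2 of each group). With the round as a block it was 2.10 (adjusted p = 0.0142), a fit to which stem cell replicate 3, alone in its round, adds nothing. With the fluidics module as a block it was 1.38 and missed the threshold. Only module 2 holds both groups, so that fit rests on stem cell replicate 2 against total testicular cell replicate 3. A missed threshold in that fit, here or below, cannot decide a call. With the mean of the 4 probe sets the difference was 1.84 (adjusted p = 0.0501 by limma).

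Trf encodes transferrin, the iron carrier that Sertoli cells secrete towards germ cells inside the barrier. Its symbol appears on 1 probe set, 1425546_a_at, together with Srprb, a subunit of the signal recognition particle receptor and the neighbouring gene in RefSeq's mouse annotation. The values cannot be assigned to either gene. They were 3.47, 4.07 and 3.37 in the total testicular group and 7.36, 6.26 and 5.68 in the stem cell group, with no overlap. The log2 difference was 2.80 ± 0.39 (SE, limma adjusted p = 0.0143), 3.94 within fluidics round 1 and 2.19 within round 3. Without stem cell replicate 1 it was 2.33 (adjusted p = 0.00289). The threshold was missed without total testicular cell replicate 1 (2.71, adjusted p = 0.108) or replicate 3 (2.66, adjusted p = 0.100) and with the module as a block (2.89, adjusted p = 0.115).

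**Figure D2:**
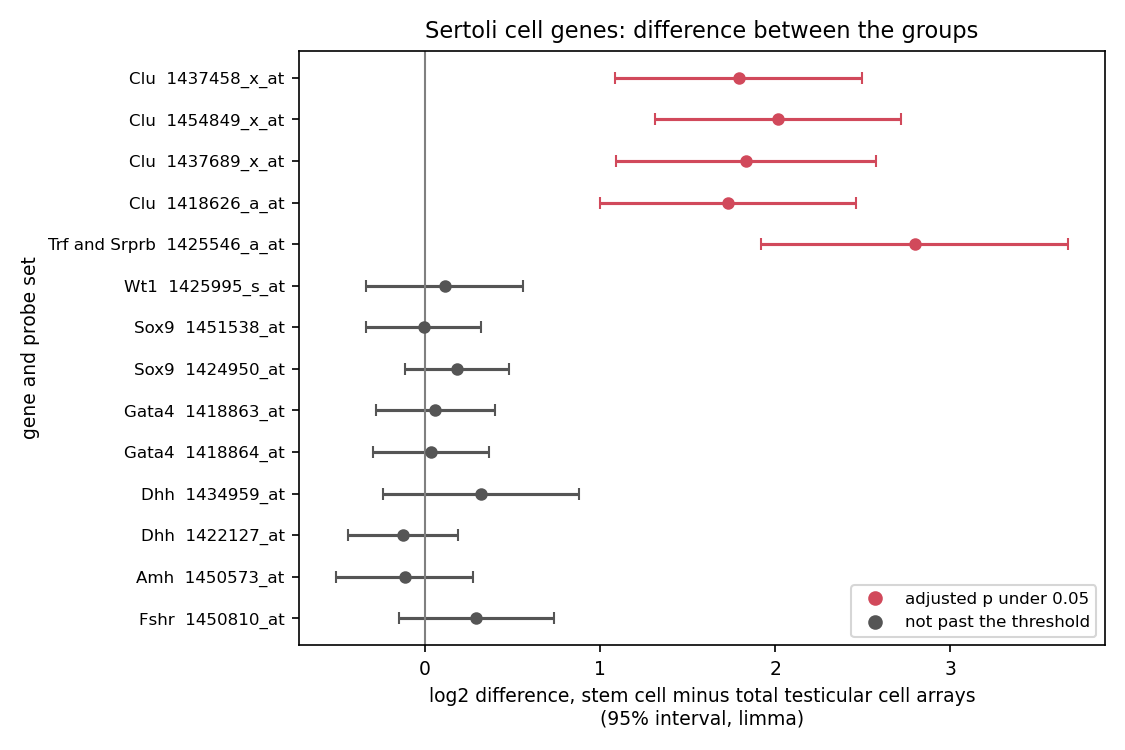
Log2 difference of each probe set, stem cell minus total testicular cell arrays (horizontal axis), with its 95% interval from limma, for the 14 probe sets (vertical axis), those past an adjusted p of 0.05 in red. The 5 red intervals lie above 0 and the 9 grey ones span it.

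The transcription factors were dim in both groups. Wt1, a zinc finger factor needed to form the gonad and to maintain Sertoli cells, read 3.52, 3.34 and 3.24 in the total testicular group and 3.17, 3.78 and 3.50 in the stem cell group. The groups overlapped, and the log2 difference was 0.11 with a 95% interval from −0.33 to 0.56 (limma adjusted p = 0.768). Sox9, the factor that commits the fetal gonad to Sertoli cells, read 2.81, 2.56 and 2.63 against 2.53, 2.63 and 2.82 on its brighter probe set. That difference was −0.01 (95% interval −0.34 to 0.32), and it was 0.18 (−0.11 to 0.48) on 1424950_at. Gata4, a zinc finger factor that activates Sertoli cell promoters, read 2.77, 2.53 and 2.53 against 2.71, 2.82 and 2.47, a difference of 0.06 (95% interval −0.28 to 0.40), and its other probe set gave 0.04. The intervals for these 3 genes reach at most 0.56, so a change as large as that of Clu lies outside them, on a scale where values this close to background understate a change.

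The ligands also overlapped between the groups. Dhh, the hedgehog ligand of Sertoli cells, read 3.16, 3.95 and 3.93 against 3.82, 3.94 and 4.25 on its brighter probe set, a log2 difference of 0.32 (95% interval −0.24 to 0.88, limma adjusted p = 0.464). On the other, 1422127_at, it was −0.12 (−0.44 to 0.19). Total testicular cell replicate 1 was the low value on the brighter probe set and not on the other. Amh read 2.80, 3.02 and 2.95 against 2.64, 2.67 and 3.12, with a difference of −0.11 (95% interval −0.51 to 0.28).

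Fshr, the receptor through which follicle stimulating hormone reaches Sertoli cells, lay at background. It read 2.25, 2.18 and 1.85 in the total testicular group and 2.36, 2.02 and 2.79 in the stem cell group, and 4 of the 6 values exceeded 2.15. The difference was 0.29 (95% interval −0.15 to 0.74, limma adjusted p = 0.389), and a change in a transcript this dim could be missed. Over the 9 probe sets of Wt1, Sox9, Gata4, Dhh, Amh and Fshr, 0 passed by limma, none of them reached an unadjusted p of 0.05, which 11.4% of all probe sets did upward and 12.1% downward, and in none were the groups apart, as they were upward in 13.5% and downward in 17.5%. All 9 had a total testicular cell mean within 2 log2 units of background or below it, and 7 within 1 unit. Of the 7 genes with a probe set of their own, Clu among them, 6 lay within 2 units by their brightest probe set and 4 within 1. Of all 12393 named genes 6680 and 5013 did so. In these bulk samples, fewer cells of a type and less RNA per cell cannot be told apart.

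Among 40 further genes listed for Sertoli cells, 35 were measured, 2 rose and 0 fell, against 1.63% and 0.137% of all genes. Ctsl, a lysosomal and secreted protease, read 7.57, 7.51 and 7.52 in the total testicular group and 9.82, 8.41 and 9.14 in the stem cell group. It was 3.01-fold higher (log2 difference 1.59 ± 0.29 SE, limma adjusted p = 0.0408). Serpina5, a serine protease inhibitor, read 5.19, 5.03 and 4.80 against 7.61, 6.33 and 6.20 and was 3.27-fold higher (1.71 ± 0.34 SE, adjusted p = 0.0482). For both, every stem cell array lay above every other array. Neither passed when any 1 of the total testicular cell arrays was left out (highest adjusted p = 0.202 and 0.231), with the module as a block or without intensity trend, and Serpina5 missed the threshold with quantile normalization (0.0539).

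The bases upstream of Ctsl and Serpina5 are shown because both genes rose, with those of Fshr, which did not pass, beside them. They come from RefSeq (GRCm38.p6), each giving 250 bases up to the transcript start, at chr13:64370521-64370770 (minus strand), chr12:104100863-104101112 (plus strand) and chr17:89200676-89200925 (minus strand).
Ctsl: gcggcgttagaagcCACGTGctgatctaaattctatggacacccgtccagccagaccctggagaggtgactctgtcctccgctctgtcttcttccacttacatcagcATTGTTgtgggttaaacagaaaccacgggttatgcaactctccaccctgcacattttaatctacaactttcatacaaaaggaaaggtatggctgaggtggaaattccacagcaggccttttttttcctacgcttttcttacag
Serpina5: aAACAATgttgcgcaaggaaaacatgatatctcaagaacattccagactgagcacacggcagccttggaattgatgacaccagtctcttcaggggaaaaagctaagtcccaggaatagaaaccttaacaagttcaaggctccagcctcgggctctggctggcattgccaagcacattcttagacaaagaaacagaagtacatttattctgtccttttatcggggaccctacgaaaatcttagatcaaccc
Fshr: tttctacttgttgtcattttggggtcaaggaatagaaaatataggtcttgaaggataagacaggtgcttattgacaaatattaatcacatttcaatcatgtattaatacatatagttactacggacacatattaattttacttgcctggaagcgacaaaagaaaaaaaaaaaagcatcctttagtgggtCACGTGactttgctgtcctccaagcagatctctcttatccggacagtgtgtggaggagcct
Capitals mark matches, on either strand, to 6 motifs: the E-box CACGTG, the SOX factor motif AACAAT, the GATA factor motif AGATAA, the SF1 motif AAGGTCA, the heat shock factor motif TTCNNGAA and the ETS factor motif GAGGAA. No matches overlap here. AACAAT was found upstream of Ctsl, starting 143 bases before the transcript start, and of Serpina5, at 249 bases, and it is held by 9.42% of the 32851 windows of this length. CACGTG was found upstream of Ctsl, at 236 bases, and of Fshr, at 61 bases, and it is held by 6.02%. The other 4 motifs, held by 4.08% to 23.25% of windows, were not found in these 3 windows. The windows of Srprb, which shares the risen probe set with Trf, and of Dhh and Sox8 are not printed and held no AACAAT. That of Srprb held AGATAA at 234 bases and that of Sox8 CACGTG at 152 bases. A match is a description of letters and says nothing of binding.

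The median log2 difference of these 35 genes was 0.35, against −0.05 over all named genes. Of the 35 differences 29 were positive, against 5324 of all 12393 named genes. After centring on hybridization controls 22 of the 35 were positive, and that centring moved the median difference of all probe sets by −0.17. In 13 genes every stem cell value lay above every other value and in 3 below, where 13.8% and 19.2% of all genes did so. Gja1, a connexin of gap junctions, differed by 1.87 (adjusted p = 0.0513 by limma), and its 6 probe sets ranged from 0.40 to 1.87. At the low end, Gata6, a zinc finger factor related to Gata4, differed by −0.71 (adjusted p = 0.0888) and Pdgfa, a growth factor, by −0.50 (adjusted p = 0.132). Without stem cell replicate 1, 4 of the 35 rose: Ctsl, Serpina5, Gja1 and Vim. Without replicate 2, 6 rose and Gata6 fell, and without replicate 3, 8 rose. Counts over all probe sets moved too, from 316 higher and 34 lower to 526 and 41 without replicate 1, 679 and 943 without replicate 2, and 1365 and 158 without replicate 3. With any 1 total testicular cell array left out, 0 of the 35 rose by limma. Of all probe sets only 36, 64 and 49 rose without total testicular cell replicate 1, 2 and 3. These counts without 1 array were chosen after the data were seen. With the fluidics round as a block 8 of the 35 rose, where 1200 of all probe sets did, and with the module as a block 0 did.

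Further genes known from Sertoli cells were picked after their values were seen. Cst9 and Cst12, genes of the cystatin family, differed by 0.82 (adjusted p = 0.0682 by limma) and 0.63 (adjusted p = 0.0653). Inha, the alpha subunit of inhibin that restrains pituitary hormone release, read 6.09, 6.22 and 5.72 against 7.58, 7.02 and 6.73, a difference of 1.10 (adjusted p = 0.0590). Rhox5, a homeobox gene, differed by 0.27 (adjusted p = 0.397). None of these 4 passed, while the stem cell values of the first 3 lay above all the others. Inha passed with the fluidics round as a block and without stem cell replicate 3, and Cst9 and Cst12 passed without stem cell replicate 2.

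**Figure D3:**
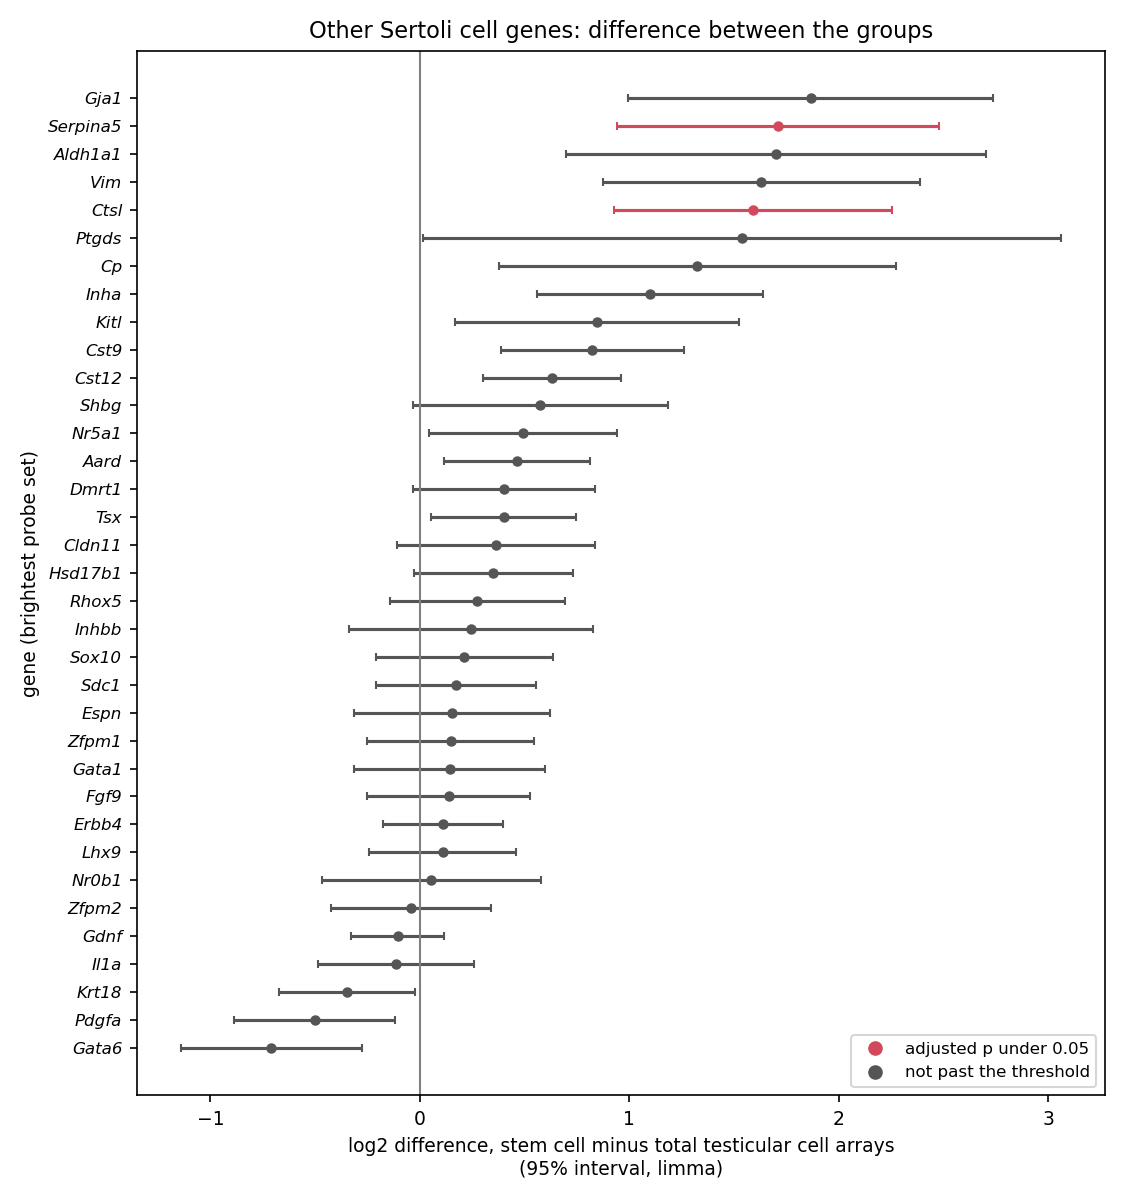
Log2 difference, stem cell minus total testicular cell arrays (horizontal axis), with its 95% interval from limma, for the brightest probe set of each of 35 further Sertoli cell genes (vertical axis), those past an adjusted p of 0.05 in red. Ctsl and Serpina5 are the 2 red points, and the other 33 are grey.

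Stem cell arrays 2 and 3 ranked differently among these genes, and the single genes named for this were picked after their values were seen. Clu was 0.80 higher on replicate 3 than on replicate 2, as were Ctsl by 0.73 and Cst9 by 0.59. Serpina5, Inha and Vim were lower on replicate 3, with differences of −0.13, −0.29 and −0.55. The shared Trf and Srprb probe set was also lower on replicate 3, with a difference of −0.58. Of all genes 50.6% were higher on replicate 3, and of all probe sets 50.4%. Among the 35 further Sertoli cell genes 17 were, against 1 of 10 macrophage markers and 0 of 5 Leydig cell markers. Over those 35 genes, replicate 3 minus replicate 2 ranged from −0.94 to 2.10. Against the total testicular cell mean, the median macrophage marker differed by 5.56 on stem cell array 1 and 3.60 on array 3, with array 2 between them. The median Leydig cell marker differed by 2.91, 1.86 and 0.82 on stem cell arrays 1, 2 and 3. For Clu these values were 2.77, 1.24 and 2.04, and for the shared probe set 3.72, 2.62 and 2.05. These values are a description of 3 arrays, with no test.

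**Figure D4:**
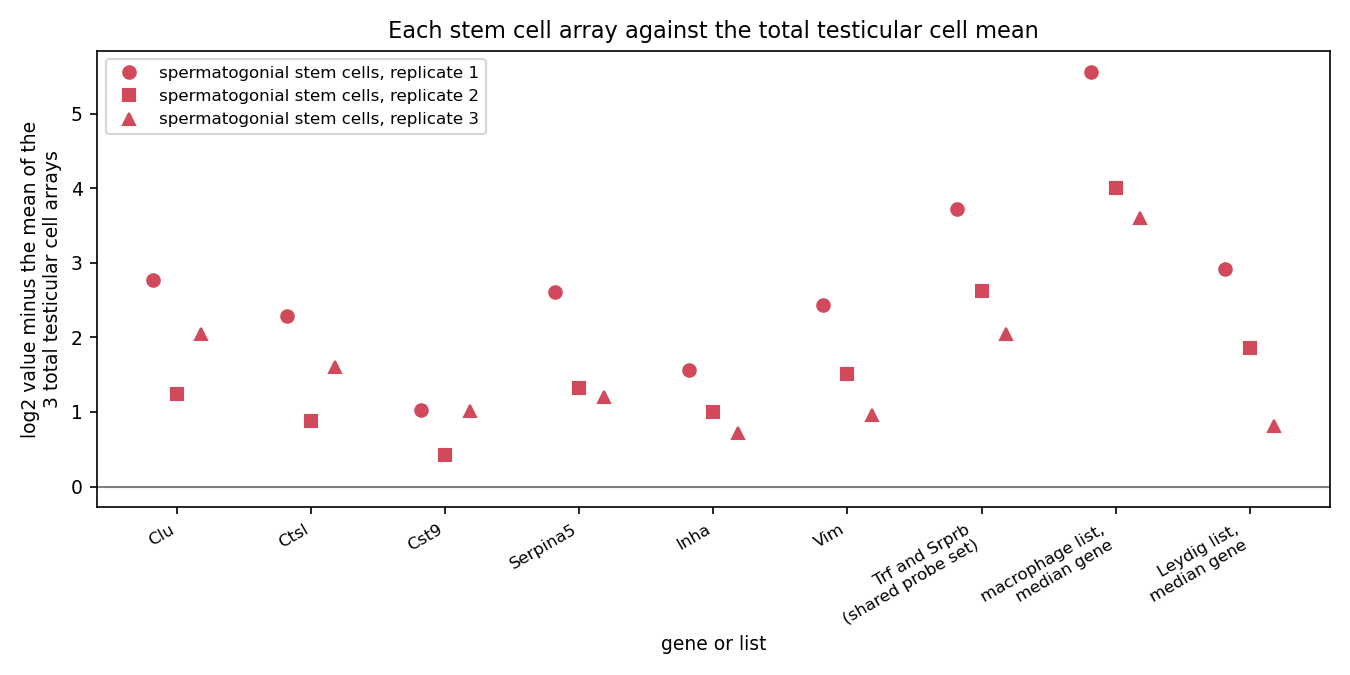
Log2 value on each stem cell array minus the total testicular mean of 3 arrays (vertical axis) for single genes, the shared probe set and the median gene of the macrophage and Leydig lists (horizontal axis), with a symbol for each replicate. Replicate 3 lies above replicate 2 for Clu, Ctsl and Cst9 and below it for Serpina5, Inha, Vim, the shared probe set and both lists. The single genes were picked for this figure after their values were seen.

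The genes whose values followed Clu most closely over the 6 arrays, among 2498 genes above background on all arrays with a range of at least 1, were Sptbn1 (Pearson r = 0.999), Marveld1 (0.997) and Pgm1 (0.996). Sptbn1, a spectrin of the membrane skeleton, read 7.43, 7.37 and 7.34 in the total testicular group and 11.33, 9.16 and 10.21 in the stem cell group. For the shared Trf and Srprb probe set the closest were Fcgrt (0.999), Ctsh (0.999) and Blvrb (0.999). Fcgrt, the neonatal Fc receptor, read 3.45, 4.19 and 3.23 against 7.77, 6.54 and 5.77. So many genes are compared over so few arrays that such values are a description only.

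Genes that receive the Sertoli cell ligands were measured with them. Of 11 measured genes of hedgehog reception, 1 rose and 0 fell, against 1.63% and 0.137% of all genes. Smo, the membrane protein that passes the hedgehog signal on, read 2.58, 2.69 and 2.53 against 3.37, 3.31 and 3.43, a difference of 0.77 ± 0.14 (SE, limma adjusted p = 0.0415). Its other probe set gave 0.09, its total testicular cell mean lay 0.46 above background, and the call was lost with median centring, quantile normalization or centring on hybridization controls (adjusted p = 0.0552, 0.0564 and 0.194), with the fluidics round (0.0519) or module (0.257) as a block, and without any 1 of the total testicular cell arrays (0.217, 0.135 and 0.227). Gas1, a hedgehog co-receptor, differed by 0.65 (adjusted p = 0.120), and Boc, another co-receptor, by −0.18 (0.643). Sufu, which restrains the pathway, differed by −0.25 (adjusted p = 0.625). The list's median was 0.02.

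Of 8 genes of AMH reception, 0 passed by limma, while 2 were higher and 0 lower at an unadjusted p under 0.05, against 11.8% and 13.1% of all genes. Amhr2, the receptor specific to AMH, read 5.60, 5.92 and 5.89 in the total testicular group and 6.91, 6.22 and 6.66 in the stem cell group, with no overlap. Its difference was 0.79 ± 0.21 (SE, adjusted p = 0.0844), and it passed without stem cell replicate 2. Smad4, the shared partner of the SMAD factors, differed by 0.97 (adjusted p = 0.108) and Smad1 by −0.49 (0.216). Smad5, a factor of the same branch, differed by −0.09.

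Of 10 measured genes of the response to follicle stimulating hormone, 0 passed by limma, with 3 higher and 0 lower at an unadjusted p under 0.05, against 11.8% and 13.1% of all genes. With the fluidics round as a block, and without stem cell replicate 3, 3 rose: Gnas, Arrb2 and Fdx1, an electron carrier of steroid synthesis. Over all 22626 probe sets 1200 and 1365 rose in those fits, against 316 in the main fit. Gnas, the stimulatory G protein alpha subunit that couples Fshr to cyclic AMP, differed by 1.11 (adjusted p = 0.0571) and passed when any 1 of the stem cell arrays was left out. Its 4 probe sets ranged from −0.01 to 1.11. Arrb2, an arrestin that quiets such receptors, differed by 0.85 (adjusted p = 0.161). The cyclic AMP response factors Crem and Creb1 differed by −0.44 (adjusted p = 0.245) and −0.26 (adjusted p = 0.506).

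Of 9 measured genes of transferrin and clusterin uptake and iron handling, 2 rose and 0 fell, against 1.63% and 0.137% of all genes. Slc40a1, the iron exporter ferroportin, read 2.58, 2.65 and 2.65 against 7.96, 6.11 and 5.49 and was 14.9-fold higher (log2 difference 3.89 ± 0.51 SE, limma adjusted p = 0.0114), starting only 0.48 above background. Fth1, the heavy chain of the iron store ferritin, was 2.48-fold higher (1.31 ± 0.26 SE, adjusted p = 0.0463). Without total testicular cell replicate 1, 2 or 3 neither passed (adjusted p = 0.0793, 0.0626 and 0.0692 for Slc40a1, and 0.217, 0.119 and 0.223 for Fth1), nor with the module as a block, and Fth1 also missed the threshold with quantile normalization (0.0532) or without intensity trend (0.0729). Lrp8, a receptor that binds clusterin, read 4.61, 4.23 and 4.13 against 3.21, 3.71 and 3.12, a difference of −0.98 (adjusted p = 0.0642) that passed with median centring, with centring on hybridization controls and without stem cell replicate 2. Lrp2, a larger receptor of that family, differed by −0.36 (0.199). Tfrc, the transferrin receptor, chosen after its values were seen, differed by 0.33 (adjusted p = 0.393).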

How the data were processed

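The authors deposited 1 log2 value for each probe set and array, a scale read from the range of the values (1.20 to 13.2). MAS5 and RMA appear in the submitters' processing notes, but neither is tied to a step, so the method, background correction and normalization behind the values are not given in the sources used here. The instrument settings that the authors deposited hold no score, only a module number and run times; these gave 3 fluidics rounds and 4 modules, on 1 chip lot, 1 scanner and 1 scan day.

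Groups and replicate numbers came from the titles. The 64 control probe sets were left out and no filter was set. Of 22626 probe sets, 20380 have 1 gene, 691 several and 1555 none. A gene is represented by the brightest of its probe sets, averaged over 6 arrays. Groups were compared with limma 3.58.1 in R 4.3.3 (lmFit, eBayes with intensity trend, 4 residual degrees of freedom, two-sided), adjusted by Benjamini-Hochberg over all probe sets, with a threshold of 0.05. Differences are stem cell minus total testicular cell arrays, and folds are derived from them. The fit was tested on simulated data with the same spread in both groups and no fluidics rounds or modules, so unequal spread was not covered.

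The members and all gene lists were chosen with earlier results of these data known. Named genes are all members, the list genes past the threshold, the 2 highest and 2 lowest of each list above background, the 3 most like Clu and the shared probe set, and genes said in the text to be chosen after their values were seen; of the marker lists for other cell types only summaries are given. Peritubular myoid (6), endothelial (6) and later germ cell (8) markers had 0 genes past the threshold by limma. At an unadjusted p under 0.05, 2, 0 and 0 were higher and 0 lower, against 11.8% and 13.1% of all genes. The total testicular cell means of all 6 endothelial markers lay within 1 log2 unit of background or below it. Those of all 6 peritubular markers lay within 2 units. Of all 12393 named genes 5013 lay within 1 unit and 6680 within 2. The number of arrays limits the precision.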

Additional observations from a re-analysis of the deposited data

How the results depend on the processing

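Over all probe sets, 316 rose and 34 fell, so 90.3% of calls were higher. That share was 80.0% with median centring (363 and 91) and 63.4% with centring on hybridization controls (844 and 487), which moved the median difference of all probe sets by −0.11 and −0.17. The counts were 1200 and 84 with the fluidics round as a block, 119 and 6 without intensity trend, and 22 lower with a log2 difference of at least 1. With the fluidics module as a block limma gave 0 and 0, against 1976 higher and 1561 lower at an unadjusted p under 0.05, since only module 2 holds both groups. Leaving out 1 array at a time gave 36 to 1365 higher and 0 to 943 lower. Without stem cell replicate 2 the excess of higher calls turned around, with 679 higher and 943 lower, so 41.9% were higher. Of the Sertoli member probe sets 5 rose; 0 did with the module as a block, 1 without intensity trend and 0 to 5 without 1 array, with 0 lower throughout. The titles give same-numbered arrays only a number in common, but those numbered 1 shared fluidics round 1 and those numbered 2 shared round 3. The correlations of their deviations were −0.01, 0.01 and 0.30 for numbers 1, 2 and 3. With the replicate number as a block 1065 and 196 passed, 5 of them member probe sets. With that replicate block 9 of the 35 further Sertoli cell genes rose, among them Inha, Cst9, Cst12 and Ptgds, and Gnas and Lrp8 passed as well. Without intensity trend the brightest Clu probe set had an adjusted p of 0.0535. In 141 refits of the other 6 genes 0 passed by limma. These 6 lie near background, and whether low signal hid a change was not tested.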

Other observations

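Ptgds, the prostaglandin D2 synthase listed among the further Sertoli cell genes and singled out after its values were seen, varied widely within each group. Its brighter probe set read 7.13, 5.55 and 7.00 in the total testicular group and 9.34, 6.43 and 8.53 in the stem cell group, so that replicate 2 was the lowest of each group. The log2 difference was 1.54 ± 0.68 (SE, limma adjusted p = 0.208), with 2.27 within fluidics round 1 and 0.88 within round 3, the round that holds both arrays numbered 2. It passed with the fluidics round as a block, with centring on hybridization controls and without stem cell replicate 2. That centring brought standard errors close together, such as 0.31 for Slc40a1 and 0.27 for Smo, against 0.51 and 0.14 in the main fit. A pass there thus leans little on a gene's own spread. The other probe set gave 1.37.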
